A study of Homo sapiens with 9 samples.

Results

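Clusters of 3 or more SF3B1 contact points on RNA, called multi-element clusters here, were described in K562 cells, an established human leukaemia line. Same-strand binding sites whose centres lay at most 60 nt apart were linked into clusters, and sites at most 12 nt apart were linked into elements within them. A cluster was kept when it held at least 3 elements. This gave 2583 multi-element clusters among 61570 clusters, or 4.20% (95% Wilson interval 4.04% to 4.36%). They held 9837 of 96852 binding sites and 8206 of 81489 elements. The clusters were chosen by the measured positions of the sites, so their number and the limits of their spacing are a description.

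The series used iCLIP, an assay that fixes proteins to the RNA they touch with ultraviolet light, precipitates one protein and reads the fixed nucleotides by sequencing. SF3B1 was precipitated from 3 cultures of genotype SF3B1 wt/wt and from 2 cultures of genotype SF3B1 K700E/wt, both lines from Horizon Discovery, and U2AF2 from 4 SF3B1 wt/wt cultures from ATCC. The labels give the source as chronic lymphoid leukaemia, whereas K562 is known as a chronic myeloid leukaemia line. All cultures were crosslinked with ultraviolet light, and none had another treatment in the labels. Only 1 merged list of SF3B1 sites was analysed. The labels attach it to the 3 unmutated SF3B1 cultures, while its header says that sites were reproducible by all replicates of either condition. It gives no value per culture and no read number, so the depth is unknown and how far cultures differed was not measurable. Intervals below cover counting error only, and clusters of one gene share its RNA and are not independent.

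SF3B1 is the largest protein of the SF3b complex in the U2 small nuclear ribonucleoprotein (snRNP). During splicing this particle pairs with the branch point sequence of an intron, and SF3B1 holds the bulged branch point adenosine and touches RNA on both sides of it. The polypyrimidine tract and the AG dinucleotide that ends the intron follow downstream, and U2AF2 binds the tract. An intron end can hold more than 1 usable branch point or AG, and the K700E substitution is known for the use of other branch points and upstream AGs.

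Of the multi-element clusters, 5 are shown as sequence, because RefSeq tables of build GRCh38.p14 cover nearly all of their sites and they lie inside a gene. They also lie away from the window at the start of that gene. The 5 were listed by hand, and how many clusters meet these criteria is not given. Capitals mark the 5 nt binding sites, and each sequence is written as DNA, 5′ to 3′ on the strand of the sites. The first 3 are whole microRNA hairpins annotated inside genes, and the other 2 come from windows around the start of a non-coding gene on the opposite strand.
IPO9, MIR6739 hairpin, chr1:201863373-201863447, plus strand: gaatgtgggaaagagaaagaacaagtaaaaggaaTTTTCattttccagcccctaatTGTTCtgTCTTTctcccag
KIFC3, MIR6772 hairpin, chr16:57772289-57772352, minus strand: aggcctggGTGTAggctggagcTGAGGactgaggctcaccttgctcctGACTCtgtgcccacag
RPL10A, MIR7111 hairpin, chr6:35470508-35470579, plus strand: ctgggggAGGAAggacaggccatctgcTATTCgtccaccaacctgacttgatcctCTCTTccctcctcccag
PRMT5, chr14:22924173-22924269, minus strand: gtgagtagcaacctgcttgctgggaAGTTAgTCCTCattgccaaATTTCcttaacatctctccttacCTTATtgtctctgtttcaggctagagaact
AIG1, chr6:143165039-143165135, plus strand: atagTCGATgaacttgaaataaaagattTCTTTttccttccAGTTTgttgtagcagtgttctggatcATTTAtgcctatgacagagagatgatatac

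In each of these 5 sequences an AG followed the last marked site. Counted from the centre of that site, its A lay 8 nt downstream in IPO9, 12 nt in KIFC3, 13 nt in RPL10A, 15 nt in PRMT5 and 13 nt in AIG1. The 3 hairpins end in AG, and this was the AG counted for them. The first marked site also had an AG downstream, 2 nt away in KIFC3, RPL10A and PRMT5, 10 nt in IPO9 and 17 nt in AIG1. How often an AG follows other sites at such distances was not counted, so nothing is read from them. In PRMT5, which encodes an arginine methyltransferase, marked sites 2, 3 and 4 had the same next AG, 51, 38 and 15 nt downstream, so all 3 elements had a site before it with no AG between. In AIG1 the third marked site had an AG 8 nt downstream and the fourth another one 13 nt downstream. The 4 sites shown in PRMT5 formed 3 elements, and 1 of the 5 sites in AIG1 and 1 of the 4 in IPO9 lay outside the part shown. In IPO9, which encodes an importin, that site alone formed the third element and lay beyond the hairpin's last base. The AG counted in IPO9 thus followed the second element and lay before the third, which is not shown. In AIG1 the missing site belonged to the first element, so each element is shown at least in part.

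The letters TNCTNAC, a loose form of the branch point consensus, were searched on both strands. On the strand of the sites they occurred once in KIFC3 (TCCTGAC, from base 45) and once in PRMT5 (TCCTTAC, from base 61), and in none of the other 3 sequences. PRMT5 also had 1 match on the other strand. Of 35116 RefSeq windows around gene starts, 4.60% held TNCTNAC in a stretch as long as the KIFC3 sequence and 6.87% in one as long as that of PRMT5. The letters TACTAAC, which TNCTNAC includes, occurred in none of the 5. A match is a description of the letters and not a mapped branch point.

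Uridine was the most frequent base in the sites. RefSeq windows and hairpins covered 52 sites of multi-element clusters, and 52.7% of their bases were T in the DNA. The share was 57.6% in 175 sites of clusters with 2 elements and 57.1% in 255 sites of clusters with 1 element, against 21.3% of all bases in these tables. At least 3 of the 5 bases were T in 31 of the 52 sites, 59.6% (95% Wilson interval 46.1% to 71.8%). In clusters with 2 elements this share was 66.3% (59.0% to 72.9%), so the intervals overlapped. These sites lie near annotated starts or in hairpins and are not a sample of the whole list. All bases of these windows and hairpins included 28.3% C and 29.2% G, and they are not a background of introns. No preference of SF3B1 for uridine is therefore read from the contrast.

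Most multi-element clusters were small. Exactly 3 elements were found in 2226 of them, 4 in 279, 5 in 60, 6 in 15, 7 in 2 and 8 in 1. The distance from the first to the last site centre had a median of 58 nt, with quartiles of 45 and 79 nt and a range of 26 to 243 nt. A single site made up 82.5% of their elements, between the 77.1% in clusters with 2 elements and the 87.2% in clusters with 1. In 1215 of the 2226 clusters with 3 elements, 54.6%, every element was a single site. Both strands held nearly equal numbers, 1290 on plus and 1293 on minus. They lay on 23 chromosomes, from 3.15% of the clusters on chromosome 19 to 5.35% on chromosome 18.

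The limits of the rule cut through a continuous range of distances. Neighbouring sites 10 to 12 nt apart, which the rule joined into 1 element, numbered 2778, and those 13 to 15 nt apart, which it separated, numbered 1487. There were 296 neighbours 58 to 60 nt apart and 283 neighbours 61 to 63 nt apart. A link of 13 to 15 nt occurred in 768 multi-element clusters and a link of 58 to 60 nt in 120. Another 116 clusters with 2 elements had a neighbour 61 to 63 nt away. The list gives a running number to each site, which neighbouring sites can share. Of the 8914 numbers in multi-element clusters, 2 reached over more than 1 element.

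Elements lay closer together in multi-element clusters than in clusters with 2 elements. Distances between the mean positions of neighbouring elements, called gaps here, had a median of 27 nt and quartiles of 19 and 37.1 nt over 5623 gaps. In the 14296 clusters with 2 elements the median gap was 36 nt, with quartiles of 30 and 41 nt. Gaps of 25 to 45 nt made up 42.6% of the first set (95% Wilson interval 41.3% to 43.9%) and 74.5% of the second (73.7% to 75.2%). Gaps under 25 nt made up 44.8% and 14.1%. The number of elements is part of the rule, so this contrast is given without a test.

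The first and the second gap of a cluster with 3 elements had different shapes, counted in the direction of transcription. The first gap had 1 peak at 16 to 18 nt, with 13.8% of the gaps in that 3 nt bin, and another at 34 to 36 nt with 9.12%. The second gap was most frequent at 16 to 21 nt, with 305 gaps in the bin of 16 to 18 nt and 307 in that of 19 to 21 nt, and had no comparable peak at 34 to 36 nt, where it had 108 gaps against 203 first gaps. Clusters with 2 elements had their peak at 34 to 36 nt, with 15.8% of the gaps. The longer peak of the first gap thus stood in the same bin as that of the clusters with 2 elements. The median first gap was 28 nt and the median second gap 24.4 nt.

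**Figure D1:**
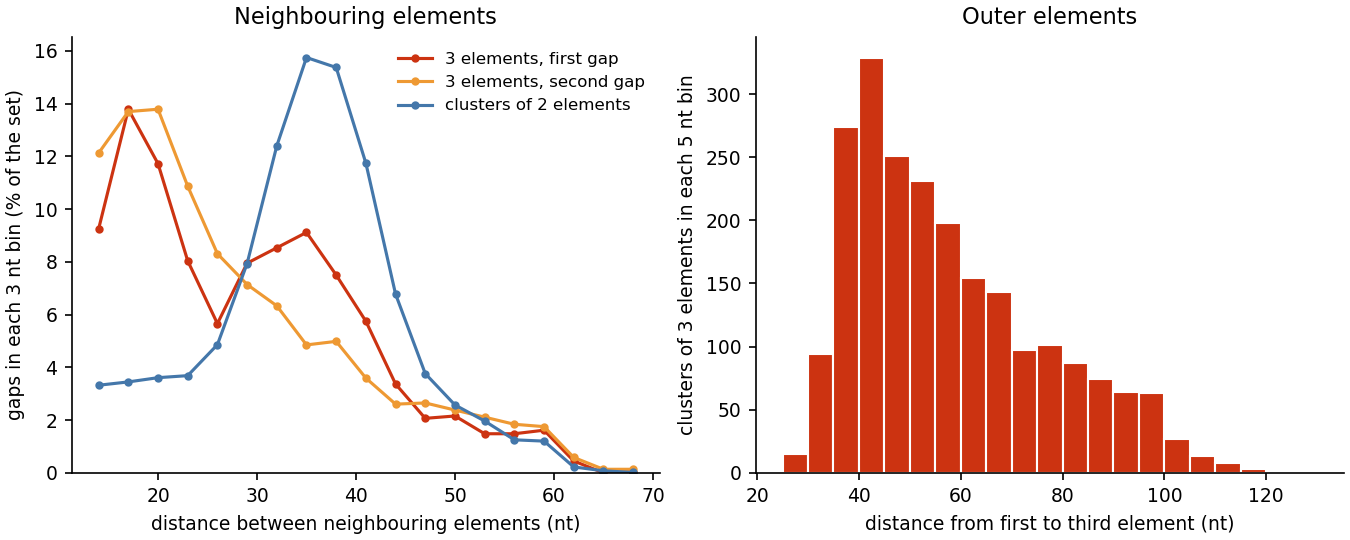
Left, share of gaps in each 3 nt bin (y axis, % of the set) against the distance between neighbouring elements (x axis, nt) for the first and second gap of 2226 clusters with 3 elements and the gap of 14296 clusters with 2 elements. Right, number of clusters with 3 elements in each 5 nt bin of the distance from the first to the third element (x axis, nt). The first gap has peaks at 16 to 18 and 34 to 36 nt, the second gap is most frequent at 16 to 21 nt, and the outer distance is most frequent in the bin from 40 nt, with 329 clusters.

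The first gap was the longer one in 1160 clusters with 3 elements and the second gap in 1024, while 42 had equal gaps. This is 53.1% of those with unequal gaps (95% Wilson interval 51.0% to 55.2%). By strand it was 51.7% (plus, 48.8% to 54.7%) and 54.5% (minus, 51.5% to 57.4%). The excess was small and on the plus strand the interval included 50%. It also depended on how elements were linked: at 8 nt in place of 12 nt the share was 48.0%, on the other side of 50%.

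The gaps were then divided into short (under 25 nt), middle (25 to 45 nt) and long (over 45 nt), limits that were chosen after the distances were seen. The most frequent order was short then short, in 556 clusters. Their outer elements were a median of 38 nt apart, with quartiles of 35 and 40.5 nt, and 441 of the 556 (79.3%) had them 31 to 41 nt apart. Because both gaps in this class are at least 13 nt and under 25 nt by construction, its limits keep the outer distance near this range. Nothing is read from it. Next came middle then short with 517 clusters (23.2%), middle then middle with 379 and short then middle with 347 (15.6%). Long gaps were less frequent: 166 clusters were middle then long, 114 long then middle, 51 long then short, 50 short then long and 46 long then long.

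When 1 gap was middle and the other short, the short gap lay downstream more often. The counts were 517 and 347, so the middle gap came first in 59.8% (95% Wilson interval 56.5% to 63.1%). By strand it was 59.2% (plus) and 60.4% (minus), and 20 chromosomes had more clusters of this order, 2 had fewer and 1 had equal numbers. In the middle-then-short order the median gaps were 33 and 17 nt, and in the opposite order 17 and 31 nt. The order did not hold for the closest sites. With elements linked at 8 nt, where gaps of 9 to 12 nt are also counted, the share over all short gaps was 49.6%. Split by the length of the short gap, it was 43.7% at 9 to 12 nt (529 against 681 clusters), 58.4% at 13 to 16 nt (271 against 193) and 60.9% at 17 to 20 nt (145 against 93). At 21 to 24 nt it was 52.2% (44.5% to 59.9%). At the 12 nt link the shares were 60.7% for short gaps of 13 to under 17 nt and 60.4% for 17 to under 21 nt. For 21 to under 25 nt the share at this link was 57.2% (50.2% to 64.0%). In these orders, pairs 9 to 12 nt apart were thus more frequent at the upstream end, and pairs 13 to 20 nt apart at the downstream end. With elements linked at 20 nt, only 141 clusters had these orders, and the share was 51.1% (42.9% to 59.2%).

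**Figure D2:**
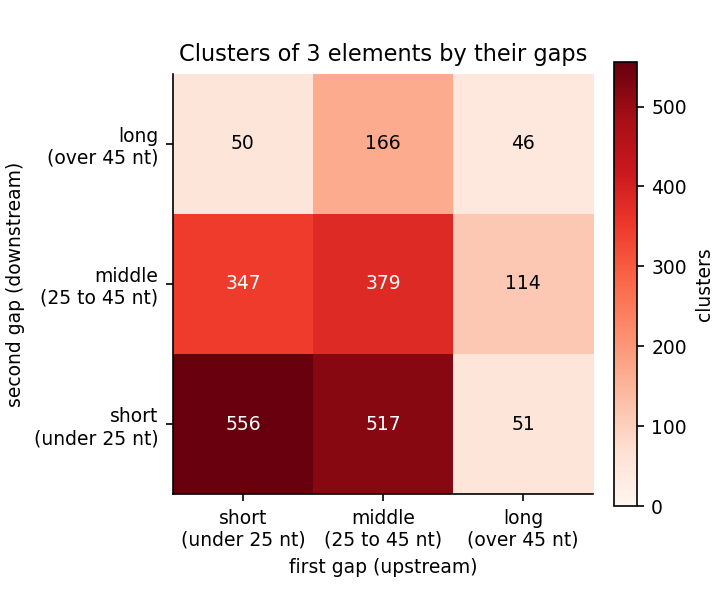
Number of clusters with 3 elements (colour and printed number) by the class of the first, upstream gap (x axis) and of the second, downstream gap (y axis), in nt. Short then short is the most frequent class with 556 clusters, and middle then short, with 517, exceeds short then middle, with 347.

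A pair of elements 31 to 41 nt apart, the range around the peak of the clusters with 2 elements, was present in 1445 of the 2226 clusters with 3 elements (64.9%). Elements 1 and 2 alone formed it in 540 clusters and elements 2 and 3 alone in 311. Both neighbouring pairs did so in 103 clusters, and the outer elements alone in 491. Of these 491, 441 were the short-then-short clusters described above, from whose outer distance nothing is read. The 64.9% includes them. The remaining 781 clusters had no such pair. Each cluster of 3 elements offers 3 pairs, so this share is not set against the 51.2% of clusters with 2 elements that had such a gap. Among the 279 clusters with 4 elements, elements 1 and 2 were 31 to 41 nt apart in 78, elements 2 and 3 in 53 and elements 3 and 4 in 43. In 20 of them, 7.17%, elements 1 and 3 and also elements 2 and 4 had this distance. These 2 distances share the gap between elements 2 and 3 and are not independent. In another count, 12 had a distance of 31 to 41 nt between elements 1 and 2 and also between elements 3 and 4. No expected number was calculated for either count, so neither is read as an arrangement.

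The upstream elements held more sites. In clusters with 3 elements the mean was 1.25 sites in the first element, 1.19 in the second and 1.17 in the third, and 22.3%, 16.4% and 15.1% of these elements held several sites. The first element held more sites than the third in 446 clusters and fewer in 289, with 1491 equal, a share of 60.7% (95% Wilson interval 57.1% to 64.1%). By strand it was 59.3% (plus) and 61.9% (minus). Clusters with 4 elements had means of 1.24, 1.22, 1.13 and 1.11 in order. In the 60 clusters with 5 elements the means were 1.32, 1.23, 1.15, 1.10 and 1.13. For clusters with 2 elements the means were 1.28 and 1.23.

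The largest cluster lay in LUC7L3, which encodes a relative of the yeast U1 snRNP protein Luc7. It had 8 elements and 9 sites at chr17:50751381-50751611 on the plus strand, 87.1% of the way along the gene. Its successive gaps were 25, 17, 35, 23, 54, 49.5 and 22.5 nt. Clusters with 7 elements lay in GOLGA4, a golgin gene (chr3:37251303-37251518, plus strand, 9 sites), and in ZFAS1, a non-coding host gene of small nucleolar RNAs (chr20:49280322-49280489, plus strand, 8 sites). The middle of the latter also lay in the small nucleolar RNA gene SNORD12B. In GOLGA4 the gaps were 40, 19, 20, 61.5, 54.5 and 16 nt, so 3 short, 1 middle and 2 long gaps shared the cluster. In ZFAS1 they were 22, 32, 44, 21, 25 and 19 nt, with none long.

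In all, 18 clusters had 6 or more elements, and 12 of them are described, with ties at 6 elements broken by more sites and then by longer span. Those with 6 elements lay in HP1BP3, which encodes a protein that binds heterochromatin protein 1 (chr1:20775878-20776066, minus strand), CPED1 (chr7:121129990-121130175, plus strand) and AVL9 (chr7:32580163-32580410, plus strand). CAPRIN1, which encodes an RNA-binding protein of stress granules, had one at chr11:34071806-34072043 on the plus strand. NAP1L1, a histone chaperone gene, had one at chr12:76053067-76053269 on the minus strand. SNRNP70, which encodes the U1-70K protein of the U1 snRNP, had one at chr19:49103930-49104125 on the plus strand. The others were in STXBP5, which encodes the SNARE regulator tomosyn (chr6:147339280-147339473, plus strand), in NMU, which encodes neuromedin U (chr4:55607275-55607479, minus strand), and in IARS1 (chr9:92250710-92250889, minus strand). Of the 64 gaps in these 12 clusters, 22 were 25 to 45 nt. Gaps ranged from 13 nt in STXBP5 to 68 nt in CPED1, where mean positions of elements can lie further apart than the linked sites.

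**Figure D3:**
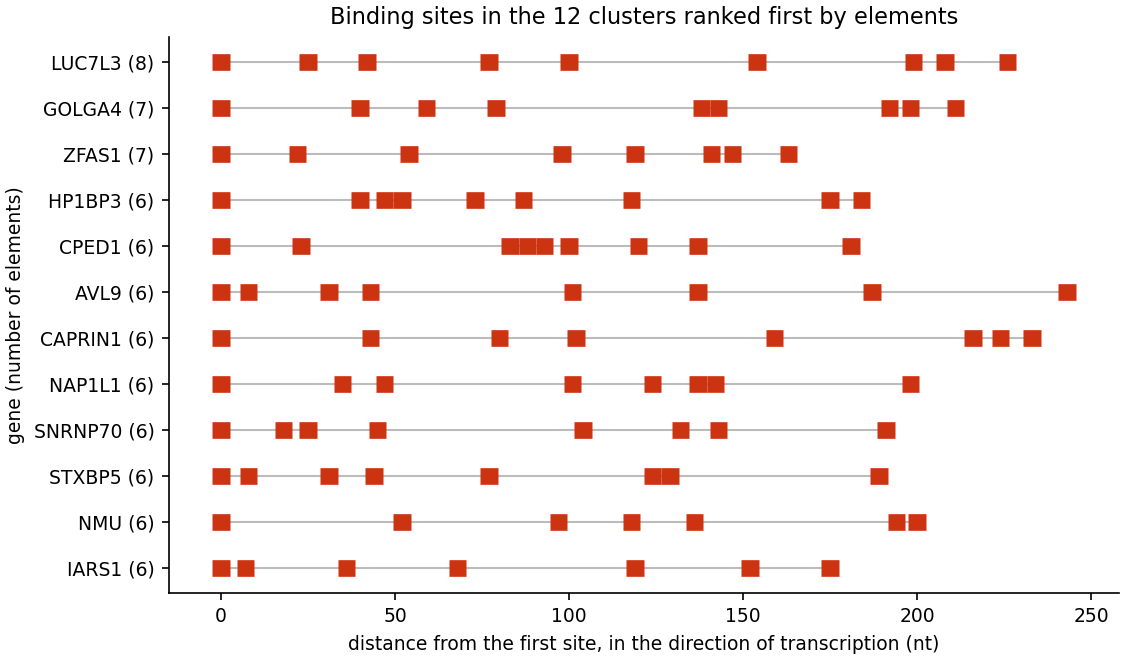
Binding sites (red, 5 nt each) in the 12 clusters ranked first by elements, then sites, then span, drawn to scale from the first site in the direction of transcription (x axis, nt), with the number of elements beside the gene name. LUC7L3 has 8 elements over 226 nt, and AVL9 has the longest of these spans, 243 nt.

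Multi-element clusters lay in protein-coding genes as often as clusters in general. The middle of 2491 of 2583, 96.4% (95% Wilson interval 95.7% to 97.1%), was inside a protein-coding gene of the same strand, against 96.6% of all clusters. Another 74 lay only in genes of other types and 18 in no gene of their strand. They were spread over many genes. Of 7440 protein-coding genes with a cluster of any size, 1601 held at least 1 multi-element cluster, which is 21.5%. Of these, 1118 held exactly 1, 483 held at least 2 and 48 at least 5. The gene table gives outer limits and not exons, so the position of a cluster relative to exons, introns and splice sites was not determined.

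The 10 genes ranked first by their number of multi-element clusters held 95 of them, 3.68%. The last place was a tie of 4 genes with 7 each, GRB10, SRSF11, SMC4 and WARS1, and went to GRB10 by the number of elements and then by symbol. IARS1, which encodes cytosolic isoleucyl-tRNA synthetase, had 11 among 97 clusters of any size (11.3%). NUP214, a nuclear pore gene, had 11 among 141 (7.80%). UBR4, a giant ubiquitin ligase gene, had 10 among 166 (6.02%), NBAS, which encodes a tethering factor of vesicle traffic, 10 among 95 (10.5%), and PICALM, a clathrin assembly gene, 10 among 92 (10.9%). PRKDC, which encodes the catalytic subunit of DNA-dependent protein kinase, had 10 among 108 (9.26%). STXBP5 had 9 among 111 (8.11%), XPO1, the nuclear exportin gene, 9 among 72 (12.5%), and CPED1 8 among 70 (11.4%). GRB10, which encodes a receptor-binding adaptor protein, had 7 among 38 (18.4%), while WARS1, which encodes tryptophanyl-tRNA synthetase, had 7 among 28. Over all clusters assigned to 1 protein-coding gene the share was 4.19%. The genes were ranked by these numbers, so higher shares among them are a result of the ranking.

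The multi-element clusters were spread along some of these genes and lay in a limited stretch of others. In XPO1 they ranged from 1.48% to 92.2% of the gene length, in NUP214 from 5.07% to 82.1% and in PICALM from 24.3% to 81.5%. In STXBP5 the first lay at 0.915% and the median at 69.8%, and in UBR4 the first at 18.4% and the median at 50.7%. All 7 in GRB10 lay between 86.2% and 98.5% of the gene length, while its other 31 clusters ranged from 7.07% to 98.4% with a median of 91.8% against 93.0%. In NBAS all 10 lay between 6.39% and 29.5% with a median of 18.5%, and its other clusters ended at 47.9% with a median of 18.3%. In CPED1 all 8 lay between 28.7% and 49.6% with a median of 44.2%, and its other clusters ranged from 0.0570% to 99.8% with a median of 45.4%. In IARS1 all 11 lay before 51.4% of the length, and the 2 last of them, at 50.2% and 51.4%, had 4 and 6 elements. The other clusters of IARS1 reached 99.1%, with a median of 41.8% against 36.7%. In PRKDC 6 lay between 1.53% and 16.2% and 3 between 96.8% and 97.0%, the nearest of them with middles 132 nt apart, and 1 lay near the middle of the gene. The median was 15.3% in PRKDC, against 42.5% for its other clusters.

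Single genes held varied arrangements. In IARS1 the clusters with 3 elements included gaps of 18.5 and 17.5 nt, 35 and 13 nt, 38 and 16 nt, and 42.5 and 41.5 nt. NUP214 had 48 and 46 nt in 1 cluster and 23 and 17.5 nt in the one before it, with middles 251.5 nt apart. In UBR4 the cluster with 5 elements had gaps of 55, 56, 47 and 20 nt, and 1 cluster with 3 elements had 19 and 19 nt. PICALM had 15 and 14 nt, the narrowest pair of gaps in the 10 genes, within a span of 29 nt. No arrangement was shared by all clusters of these genes.

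**Figure D4:**
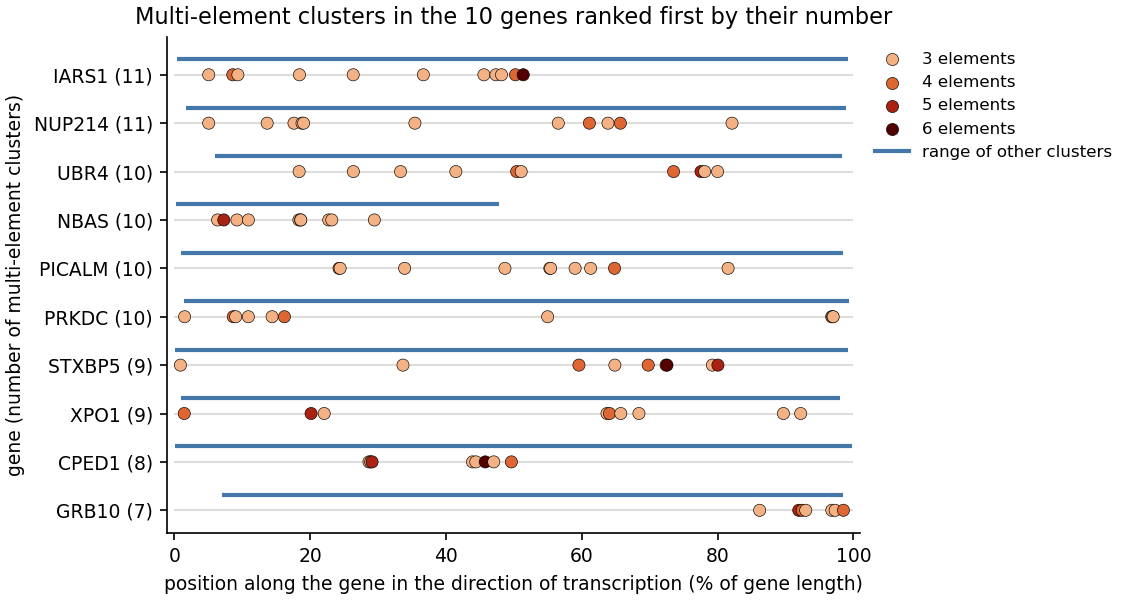
Multi-element clusters (points, coloured by number of elements) along the 10 genes ranked first by their number, from the gene start at 0% to its end at 100% in the direction of transcription (x axis), with the range of the other clusters of the gene as a blue line. Those of GRB10 lie between 86.2% and 98.5%, those of NBAS between 6.39% and 29.5% and those of CPED1 between 28.7% and 49.6%.

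Genes with many clusters had a higher share with 3 or more elements. The share was 2.32% in 3709 genes with 1 to 4 clusters (95% Wilson interval 2.01% to 2.67%) and 3.31% with 5 to 9 clusters (3.00% to 3.65%). It was 4.29% with 10 to 19 clusters, 4.87% with 20 to 39 and 6.04% in the 130 genes with 40 or more (5.52% to 6.61%). Genes with at least 1 multi-element cluster had a median of 14 clusters, against 5 over all genes with a cluster. Transcript abundance was not measured here, and its part in this relation was not tested.

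Their position along genes was close to that of other clusters. The median position was 61.1% of the gene length, against 62.7% for clusters with 2 elements and 62.1% for single elements. The last 10% of the gene held 13.3% of multi-element clusters (95% Wilson interval 12.0% to 14.6%), 13.9% of clusters with 2 elements (13.4% to 14.5%) and 13.3% of single elements (12.9% to 13.6%). The first 10% held 4.65%, 3.95% and 4.83%. Within the 1584 genes that had both kinds, the mean position of multi-element clusters was further downstream in 809 and further upstream in 775, 51.1% (48.6% to 53.5%).

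**Figure D5:**
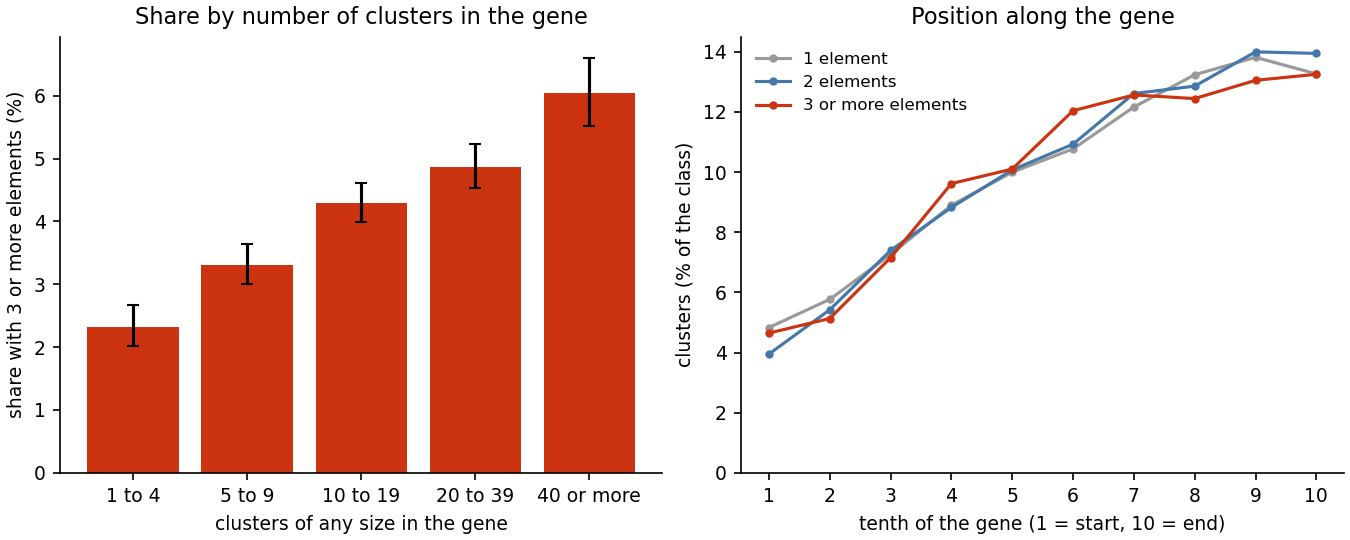
Left, share of clusters with 3 or more elements (y axis, %, bars with 95% Wilson intervals) by the number of clusters of any size in the gene (x axis), rising from 2.32% to 6.04%. Right, share of clusters (y axis, % of the class) in each 10% of the gene from start to end (x axis) for clusters with 1, 2 and 3 or more elements, 3 curves that lie close together, with 13.3%, 13.9% and 13.3% in the last 10%.

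A few multi-element clusters lay near a gene end. Among those with at least 4 elements, the nearest to an end was in PPP1R10, which encodes a regulatory subunit of protein phosphatase 1, with its middle 59 nt from the annotated start (chr6:30617138-30617230, minus strand). In PABPC1, the gene of the main cytoplasmic poly(A)-binding protein, one lay 140 nt from the start. In CDC45, a replication initiation gene, one with 4 elements lay 147 nt from the annotated end (chr22:19520416-19520514, plus strand).

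Other clusters were close by more often than around smaller clusters. Within 250 nt downstream, 40.7% of multi-element clusters had another cluster (95% Wilson interval 38.8% to 42.6%), against 31.8% of clusters with 2 elements (31.1% to 32.6%) and 23.6% of single elements (23.2% to 24.0%). Upstream the shares were 34.4%, 23.4% and 26.7%. The median distance to the next cluster was 411 nt downstream and 567.5 nt upstream, so the downstream neighbour was nearer, as it also was for clusters with 2 elements (1027 and 1495 nt). For single elements the upstream neighbour was nearer (1197 and 1345 nt). The nearest neighbour was itself a multi-element cluster in 5.27% of cases (4.47% to 6.19%), against 4.04% around clusters with 2 elements and 4.54% around single elements. These differences were not tested, and the number of clusters in the gene, which moves with the class, was not held equal.

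Splicing factor genes held some of these clusters. Of 22 heterogeneous nuclear ribonucleoprotein (hnRNP) genes, 19 had a cluster and 15 had one with 3 or more elements, 36 of their 428 clusters (8.41%). Over all genes 21.5% of those with a cluster held a multi-element one, and 4.19% of clusters were of this kind. HNRNPU and HNRNPLL had 5 each, and HNRNPA3, PTBP1, HNRNPC and HNRNPH3 were among 5 genes with 3 each. Of 11 SR protein genes known for poison exons, 10 had a cluster and 6 a multi-element one, 14 of 185 clusters (7.57%). SRSF11 had 7 of these 14, including 1 with 5 elements at chr1:70229325-70229486 on the plus strand. TRA2A and SRSF7 had 2 each. Among 21 genes of the U2 snRNP and branch point recognition, 19 had a cluster and 10 a multi-element one, 18 of 267 clusters (6.74%). SF3B1 itself had 4 among 25 clusters, SF1, which encodes the first protein to bind the branch point, 4 among 28, and SF3B3 and DHX15 2 each. The genes of these lists are rich in clusters, with medians of 25, 18 and 7 per gene against 5 over all genes. Over all genes the share was 4.87% in those with 20 to 39 clusters, 4.29% with 10 to 19 and 3.31% with 5 to 9. These are the ranges that hold the 3 medians, and the shares of the lists were above them. Genes within a list differ in their number of clusters, which was not held equal. The lists were drawn up with earlier results of these data known, and no list was tested.

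Genes known to use other 3′ splice sites in SF3B1-mutant cells had a share near that of all genes. Of 19 such genes, 15 had a cluster and 5 a multi-element one, 33.3% against 21.5% of all genes with a cluster, and 8 of their 172 clusters (4.65%) had 3 or more elements, near the 4.19% of all genes. ENOSF1 held 4 of the 8. One of these had 6 elements over 122 nt (chr18:693850-693976, minus strand) with gaps of 23, 28.5, 29.5, 25 and 16 nt. Another had 5 elements over 67 nt (chr18:690980-691051). PPOX, an enzyme of heme synthesis, MAP3K7, SLC3A2 and DVL2 had 1 each.

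Genes of the erythroid lineage, which K562 cells express in part, also held some. Of 26 heme and erythroid genes, 18 had a cluster and 10 a multi-element one, 23 of 322 clusters (7.14%), against 21.5% of genes and 4.19% of clusters over all genes, with a median of 8.5 clusters per listed gene. Over all genes the share was 3.31% in those with 5 to 9 clusters, the range of this median. It was 6.04% in those with 40 or more, the range of EPB41, TFRC and ANK1. EPB41, the gene of the membrane skeleton protein 4.1, had 6 among 51 clusters, and TFRC, the transferrin receptor gene, 5 among 74. One cluster in TFRC had 6 elements over 118 nt (chr3:196062584-196062706, minus strand), with gaps of 23, 17, 24, 32 and 19 nt. ANK1 had 3, and ALAS2, the erythroid enzyme of the first step of heme synthesis, had 2 among 8 clusters. Large ubiquitin ligase genes had 34 among 615 clusters (5.53%) in 7 of 9 genes, with HUWE1 and BIRC6 at 5 each. Cohesin, condensin and SMC genes had 25 among 472 (5.30%) in 10 of 19 genes, and SMC4, a condensin core subunit, had 7 of these 25. The genes of these last 2 lists had medians of 74 and 22 clusters, and over all genes the share was 4.87% in those with 20 to 39 clusters and 6.04% in those with 40 or more. Of the 6 kinase genes related to PI3K, PRKDC had 10 multi-element clusters, TRRAP had 1, and ATM, ATR, MTOR and SMG1 had none. These were 11 among 262 clusters (4.20%), so nearly all came from PRKDC.

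Some of these clusters overlapped or flanked microRNA hairpins. A hairpin on the same strand lay within 100 nt of 11 multi-element clusters, 0.426% (95% Wilson interval 0.238% to 0.761%), against 0.175% of clusters with 2 elements (0.118% to 0.258%) and 0.121% of single elements (0.0926% to 0.158%). This count was made after the hairpins were seen, and longer clusters reach further. The MIR15B hairpin overlapped the last site of a cluster in SMC4. A cluster of MIR17HG, the host of the miR-17 to miR-92a group, lay between 2 hairpins, 2 nt downstream of MIR19A and 49 nt upstream of MIR20A. Clusters lay 18 nt upstream of MIR223, 27 nt upstream of MIRLET7F1 and 85 nt upstream of MIR101-1. In the hairpins shown above, 2 sites touched the mature miR-6739-3p, 1 touched miR-7111-5p and 1 miR-7111-3p, and in MIR6772 2 touched the 5p arm and 1 the 3p arm.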

How the data were processed

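One list from SF3B1 iCLIP in K562 was analysed. The authors deposited it as merged 5 nt sites, per the file header, with a score of 0 in all 96852 rows. Builds GRCh38.p10 and GRCh38.p12 and the tools STAR (2.6.1b, 2.7.3a), UMI-tools 1.0.0, bedtools 2.27.1 and FastQC 0.11.8 are named, with no role, in the submitters' processing notes. The site caller is not given in the sources used here.

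Site centres were made 1-based and linked as described. The position of an element was the mean of its site centres. Gene limits came from RefSeq GRCh38.p14. Gene strand came from the RefSeq window table for 15842 of 20056 protein-coding genes and from the sites for 1222. A cluster belonged to a same-strand gene that contained its middle, and counts per gene used clusters in 1 protein-coding gene. Sequences were read from RefSeq windows (250 nt before to 50 nt after a gene start) and hairpins.

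No replicate values were used, so no test was made. Clusters and lists were chosen with earlier results of these data known. Named are the 10 genes with the most multi-element clusters (ties by elements, then symbol), the 12 clusters with the most elements (ties by sites, then span), up to 6 genes per list (ties by elements, then symbol), and the 3 clusters with 4 or more elements nearest a gene end. One gene named by this rule is not reported here. Linking was tested on simulated data with no gaps between elements under 25 nt, so distances near the 12 nt limit were not covered. Planned analyses of splice sites could not be run without exons, and sequence was limited to the RefSeq tables. Alternatives changed links, sites, strands and genes. Python 3.11.15, NumPy 2.4.6, pandas 2.3.3, SciPy 1.17.1 and Matplotlib 3.10.9 were used.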

Additional observations from a re-analysis of the deposited data

How the results depend on the processing

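Of 61 recalculations of 9 results, 42 stayed within the Wilson interval of the value given, or within 1.5 times for counts, 17 moved and 2 turned. Both turns came from linking elements at 8 nt. The share of clusters with 3 elements whose first gap is longer became 48.0%, and that with the middle gap before the short one became 49.6%. The same setting gave 4574 multi-element clusters, 36.0% of gaps at 25 to 45 nt and 54.9% of clusters in which the first element holds more sites. Linking at 20 nt gave 1141 clusters, 62.9% of gaps at 25 to 45 nt, 50.9% with a longer first gap and 51.1% with the middle gap first. A cluster link of 45 nt gave 45.9% of gaps at 25 to 45 nt and one of 80 nt gave 39.3%. The link of 80 nt gave 51.0% with a longer first gap. This is counted as unmoved, although its own interval (49.1% to 53.0%) included 50%. With 1 site per running number the first element held more sites in 64.4%. Each strand alone had fewer clusters, 1290 on plus and 1293 on minus. Setting the upper limit of short gaps at 22 or 28 nt gave 55.9% and 64.2% with the middle gap first. At least 2 multi-element clusters were found in 483 genes and in 37 of the 64 list genes. Counting only clusters of 2 or more elements as neighbours gave 11.7% with one within 250 nt downstream. This was computed for multi-element clusters alone, so it does not show whether their contrast with smaller clusters holds. The alternatives for the order of a middle and a short gap were chosen after seeing the data. Splice site context was not run, nor was the alternative window for sequence. No paired analysis was possible because replicates were merged by the authors, and for the same reason none could be left out. Read numbers are unknown, so a missing element cannot be told from one too weakly covered.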

Other observations

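Outside protein-coding genes, 57 multi-element clusters overlapped lncRNA genes and 17 overlapped transcribed pseudogenes. The genes below were named after their values were seen. ZFAS1 and MIR17HG, hosts of small nucleolar RNAs and of microRNAs, had 3 each, and the ZFAS1 cluster with 7 elements was the largest outside protein-coding genes. NEAT1, the RNA of nuclear paraspeckles, had 2, and the larger of them had 5 elements. ERVE-5 had 3, with up to 4 elements. The transcribed pseudogene ASNSP1 also had 3. Reads from pseudogenes can map to their parent genes, so these counts are uncertain.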
